A study of Rattus norvegicus with 8 samples.

Results

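Endothelin and nitric oxide act on the lung vessels in opposite directions, and 10 genes that make, process or receive them were followed in rat lung under hypobaric hypoxia: Edn1, Edn3, Ece1, Ednra, Ednrb, Nos1, Nos2, Nos3, Gucy1a3 and Gucy1b3. They were chosen by name among the non-control probes of the arrays (case ignored, the ending _predicted removed), which gave 13 of 41012 probes and 67 of 45018 spots on each array. All 10 were on the array and 8 were bright enough to be tested among 24138 genes. The study exposed rats to a simulated altitude of 30000 ft after 7 days of pretreatment with cobalt (12.5 mg/kg body weight) or normal saline. Cobalt is a metal that stabilises hypoxia-inducible factors, and the series asks how it alters the lung's response. Lung RNA was taken after 6, 12, 24 or 48 h of hypoxia from cobalt rats and from saline rats, and after 0 h in each pretreatment. There were 8 groups of 1 array each, with no replicate array: cobalt at 6, 12, 24 and 48 h, each against the cobalt 0 h RNA, and saline at 6, 12, 24 and 48 h, each against the saline 0 h RNA. The labels name 1 0 h RNA per pretreatment, shared by its 4 arrays, so the spread among 0 h lungs is in no value below. They give neither strain, sex and age nor the number of animals behind an RNA.

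Hypoxia RNA was labelled with Cy3 on the 4 cobalt arrays and with Cy5 on the 4 saline arrays, and each pretreatment had its own slide and scan. The effects of pretreatment, of slide and scan, and of the dye orientation cannot be told apart in a contrast of cobalt with saline, while a dye effect common to both pretreatments cancels in their average. Each value is a log2 ratio of hypoxia over 0 h, so that 1 stands for a doubling and negative values for less RNA in hypoxia. Tests were made with limma across all 24138 genes, and a gene was called at a Benjamini-Hochberg adjusted p under 0.05. The 4 durations within a pretreatment served as the spread, which was pooled over both pretreatments. Of all spots, 56.5% to 65.7% were well above background in green and 62.1% to 71.1% in red. Markers of lung tissue were present, with all 7 type II, all 5 type I and all 12 endothelial markers bright enough to be tested. Cardiac muscle markers were high on 2 arrays: their median log2 ratio was 2.07 on the saline 12 h array and 3.26 on the saline 48 h array, against -0.07 to 0.23 on the other arrays.

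Endothelins are small peptides cut from larger precursors by endothelin-converting enzyme (Ece1). Endothelin-1 (Edn1) is a strong vasoconstrictor that acts on smooth muscle through the ETA receptor (Ednra), while the ETB receptor (Ednrb) on endothelium clears the peptide and couples to nitric oxide release. Nitric oxide is made from arginine by neuronal (Nos1), inducible (Nos2) and endothelial (Nos3) synthases and binds soluble guanylate cyclase, a dimer of an alpha subunit (Gucy1a3, now Gucy1a1) and a beta subunit (Gucy1b3, now Gucy1b1), which then makes cyclic GMP and relaxes the vessel. Both systems are known for their part in hypoxic pulmonary vasoconstriction.

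The 60-base probes that read the 3 synthases, both ligands and the ETB receptor are given 5′ to 3′ as the array files hold them, because detection differed among the synthases and the calls on the ligands and on Ednrb rest on 1 probe each. Positions are those of the files, whose header names the rat build rn3; no gene model of that build was used, so exon positions are not given. Capitals in the first pair mark bases that are the same in the Nos3 and Nos2 probes when they are laid over each other without gaps, 27 of 54 bases at the best offset. For the Nos1 probe the best offset gave 20 of 56 bases, and it is written in lower case, as are those of the endothelin genes.
Nos3 probe: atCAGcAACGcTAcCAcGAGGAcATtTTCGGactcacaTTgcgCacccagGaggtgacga
Nos2 probe: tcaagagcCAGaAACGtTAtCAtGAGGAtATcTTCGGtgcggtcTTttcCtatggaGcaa
Nos1 probe: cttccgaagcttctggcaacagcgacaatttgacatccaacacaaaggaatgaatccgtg
Edn1 probe: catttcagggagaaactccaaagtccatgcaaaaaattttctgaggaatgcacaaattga
Edn3 probe: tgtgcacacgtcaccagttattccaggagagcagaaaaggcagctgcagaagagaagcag
Ednrb probe: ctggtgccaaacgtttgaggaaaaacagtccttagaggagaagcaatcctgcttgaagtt
The Nos3 probe lies at chr4:6159286-6159345 on the minus strand, the Nos1 probe at chr12:39674311-39674370 on the minus strand, the Edn1 probe at chr17:28306864-28306923 on the minus strand and the Ednrb probe at chr15:87909414-87909473 on the minus strand. The files place the Nos2 probe at chr10:65083834-65085873, which spans 2040 bases, and the Edn3 probe at chr3:166416935-166417879, which spans 945 bases, both on the plus strand and both longer than the 60 bases of the probe.

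Averaged over both pretreatments, hypoxic lungs had less RNA of both ligands, of the ETB receptor and of both cyclase subunits than 0 h lungs, and more Nos3. Of the 8 members tested, 5 fell, 1 rose and 2 (Ednra and Ece1) did not pass the test, with a median log2 ratio of -0.54 over the 8 and of -0.001 over all genes. In this comparison 31.9% of all genes were called, 15.7% higher and 16.3% lower in hypoxia. The members had 1 sign on all 8 arrays in 2 of 8 cases, Edn1 and Edn3, which was so for 12.8% of all genes. The plot of log2 ratios by duration shows each member on every array.

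**Figure D1:**
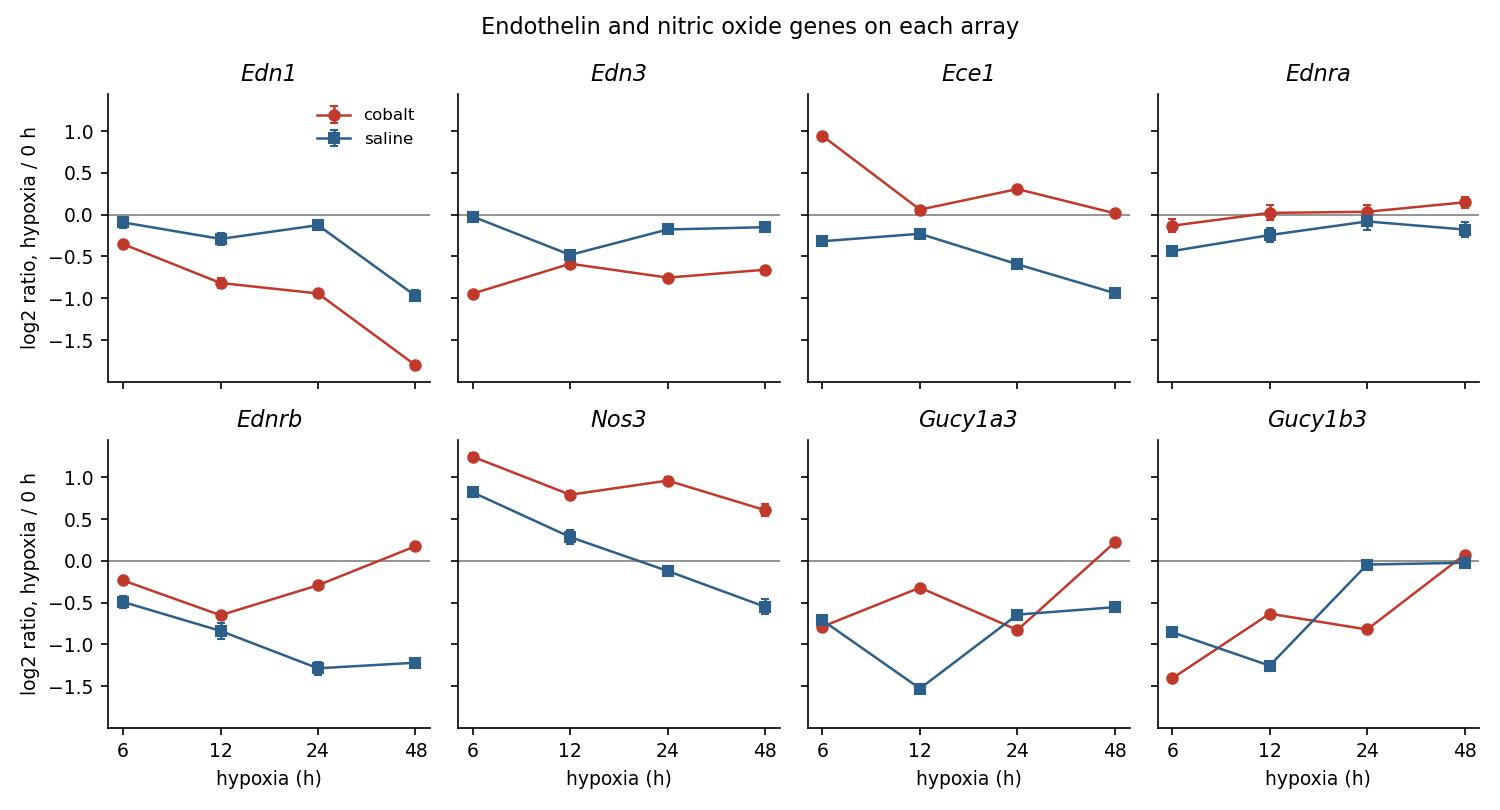
Log2 ratio of hypoxia over 0 h (y axis) at 6, 12, 24 and 48 h of hypoxia (x axis, durations spaced evenly) for the 8 members tested, with 1 point per array, cobalt as red circles and saline as blue squares. Bars are the SD over up to 10 spots of the probe on that array, for Edn1, Ednra, Ednrb and Nos3, and other members have 1 spot. Edn1 lay below 0 on all 8 arrays and was lowest at 48 h in both pretreatments, and Nos3 was highest at 6 h in both.

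Edn1 was lower in hypoxia on every array and lowest at 48 h. Its log2 ratios in cobalt rats were -0.35 at 6 h, -0.82 at 12 h, -0.94 at 24 h and -1.80 at 48 h, against -0.09, -0.29, -0.13 and -0.97 in saline rats at the same durations. The cobalt array was below the saline array at each duration, yet the ranges of the pretreatments overlapped. The 10 spots of the Edn1 probe had an SD of 0.038 to 0.071 within an array, which is technical spread, and the saline values of 6 and 24 h lay within it of each other. The average log2 ratio was -0.67 ± 0.15 (SE, 8 arrays), 1.60-fold lower in hypoxia (adjusted p = 0.00818, limma). Without the saline 12 h and 48 h arrays, where the cardiac markers were high, the Edn1 average was -0.54 and no longer passed the test (adjusted p = 0.0583). The fall on every array holds for the loess values. With each array centred on its median in place of loess, the Edn1 mean in saline rats was 0.36 (adjusted p = 0.15, limma).

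Edn3, another endothelin, known for its action through the ETB receptor, fell on average and was below 0 on every array. Its log2 ratios were -0.94, -0.59, -0.75 and -0.66 in cobalt rats at 6, 12, 24 and 48 h, against -0.02, -0.48, -0.18 and -0.15 in saline rats. In these loess values all 4 cobalt arrays lay below all 4 saline arrays. The average for Edn3 was -0.47 ± 0.06 (SE, 8 arrays, adjusted p = 0.000778, limma), and it passed in all 20 alternative settings, with values from -0.80 to -0.42. This probe has 1 spot per array and was dim, with a mean log2 intensity of 7.35 against 10.2 for the Edn1 probe. It was dimmer in saline rats, with a mean 0 h level of 6.91 against 8.27 in cobalt rats. The Nos1 and Nos2 probes, at background, had mean intensities of 6.07 and 6.26. Whether the low signal in saline rats made their Edn3 ratios smaller was not tested. The software's own ratios, for Edn3, which differ in both background and dye handling, in the same order of durations, were -1.20, -0.82, -1.16 and -0.86 in cobalt rats and 0.27, -1.61, -0.50 and -0.54 in saline rats.

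Ece1 is read by 3 probes whose values differed in sign. The brightest, which stands for the gene, had log2 ratios of 0.94, 0.06, 0.31 and 0.02 in cobalt rats and -0.32, -0.23, -0.59 and -0.94 in saline rats. Its hypoxia channel was saturated on the saline 6 h and 12 h arrays, so those 2 ratios are lower bounds and whether the pretreatments overlap cannot be said for this probe. The second probe gave cobalt and saline means of 0.17 and -0.53. The third gave means of 0.41 and 0.27 and was higher in hypoxia on 7 of 8 arrays. In saline rats it reached 0.72 at 6 h and 0.70 at 12 h, where the second probe gave -0.53 and -0.39. At those durations the saturated brightest probe cannot be set against it. At 24 and 48 h the third probe gave 0.03 and -0.36 in saline rats, above the second (-0.50 and -0.69) and the brightest. The averages over both pretreatments were -0.09 ± 0.11, -0.18 ± 0.09 and 0.34 ± 0.13 (SE, 8 arrays each) for the 3 probes, with adjusted p of 0.555, 0.143 and 0.0752 (limma), so no probe gave a call and their signs differed. The first of these averages is itself a lower bound. All 3 probes were lower at 48 h than at 6 h in both pretreatments.

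Of the 2 receptors, Ednrb fell and Ednra did not pass the test. Ednrb had log2 ratios of -0.23, -0.65, -0.29 and 0.18 in cobalt rats, against -0.49, -0.84, -1.29 and -1.22 in saline rats. The saline array was the lower one at every duration, by 0.26 at 6 h, 0.19 at 12 h, 0.99 at 24 h and 1.39 at 48 h, and only the cobalt 48 h array was above 0. The Ednrb spots spread by an SD of 0.028 to 0.096 within an array. The average for Ednrb was -0.60 ± 0.11 (SE, 8 arrays), 1.52-fold lower in hypoxia (adjusted p = 0.00288, limma), and it passed in all 20 alternative settings.

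Ednra had log2 ratios of -0.13, 0.02, 0.03 and 0.15 in cobalt rats and -0.44, -0.24, -0.08 and -0.18 in saline rats. The pretreatments overlapped, and both had their lowest value at 6 h. The average was -0.11 ± 0.05 (SE, 8 arrays, adjusted p = 0.149, limma) on a dim probe with a mean log2 intensity of 7.20. Another probe, whose name in the files (RGD1559432_predicted) is a synonym of Ednra in the RefSeq gene table, is not among the members, and its early values were lower: they were -0.50, -0.04, -0.23 and 0.03 in cobalt rats and -1.90, -1.34, -0.21 and -0.05 in saline rats. Its average was -0.53 (adjusted p = 0.0537, limma).

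**Figure D2:**
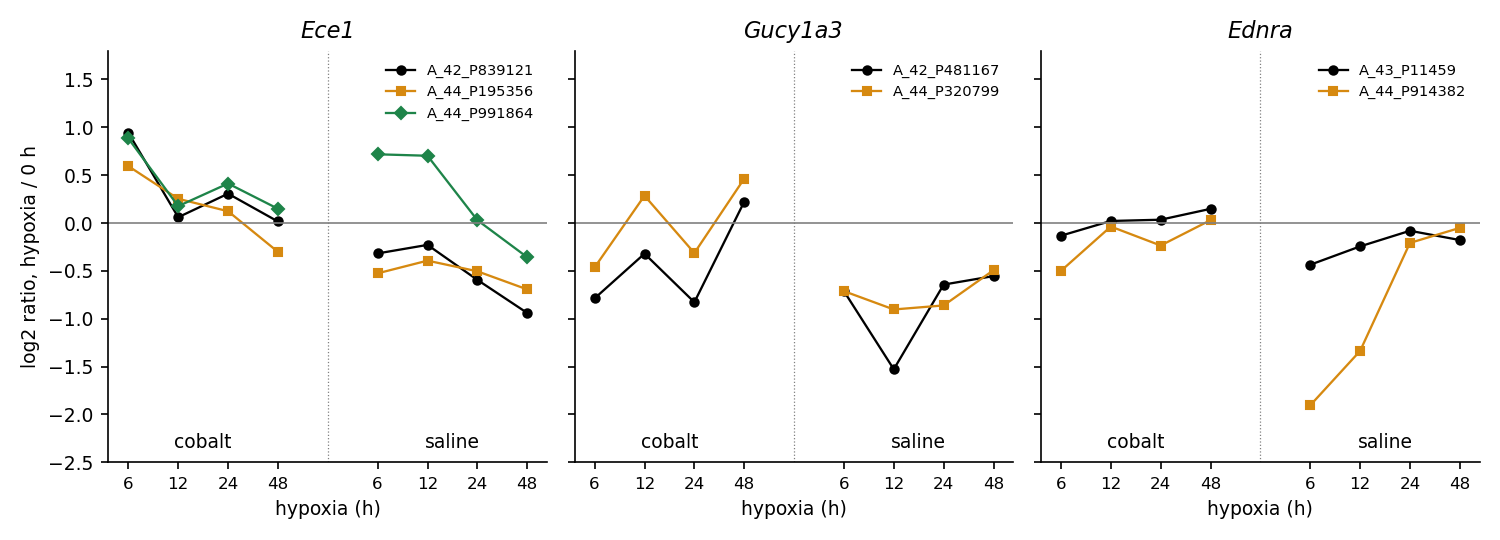
Log2 ratio of hypoxia over 0 h (y axis) by duration in h (x axis, cobalt arrays left and saline arrays right in each panel) for every probe of Ece1 and Gucy1a3 and for the Ednra probe (black) beside the probe filed under a synonym of Ednra (orange). The black line is the probe that stands for the gene. In saline rats at 6 and 12 h the green Ece1 probe was above 0 and the orange one below. The hypoxia channel of the black Ece1 probe was saturated on those 2 arrays, so its values there, drawn below 0, are lower bounds. The synonym probe of Ednra reached -1.90 in saline rats at 6 h.

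Among the synthases, Nos3 was the only one bright enough to be tested, and it rose in hypoxia on average over the durations. Its log2 ratios were 1.25, 0.79, 0.96 and 0.61 in cobalt rats at 6, 12, 24 and 48 h, against 0.82, 0.28, -0.12 and -0.55 in saline rats. The cobalt array was the higher at every duration, by 0.43 at 6 h and 1.16 at 48 h, and the saline arrays of 24 and 48 h were below 0. The spot SD was 0.041 to 0.089. The average was 0.50 ± 0.13 (SE, 8 arrays), 1.42-fold higher in hypoxia (adjusted p = 0.0182, limma). Centring each array on its median in place of loess left 0.27 for Nos3, which did not pass (adjusted p = 0.162).

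Nos1 was not well above background in either channel on any of the 8 arrays. Nos2 was so on 1 array, in the hypoxia channel at 12 h in saline rats. With 10 spots each, their log2 ratios ran from -0.05 to 0.05 for Nos1 and from 0.03 to 0.18 for Nos2. No fold change is drawn from signals at background.

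Both subunits of the cyclase fell on average over the durations, and at 48 h in cobalt rats both were above 0. Gucy1b3 had log2 ratios of -1.41, -0.63, -0.82 and 0.07 in cobalt rats, against -0.85, -1.25, -0.04 and -0.02 in saline rats. The lowest value was at 6 h in cobalt rats and at 12 h in saline rats, and the pretreatments overlapped. Gucy1a3 had -0.79, -0.32, -0.83 and 0.22 in cobalt rats, against -0.71, -1.53, -0.64 and -0.55 in saline rats, and overlapped as well. Of the 2, only Gucy1a3 was still well below 0 in saline rats at 48 h.

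The average was -0.64 ± 0.14 for Gucy1a3 (1.56-fold lower in hypoxia, adjusted p = 0.00678) and -0.62 ± 0.17 for Gucy1b3 (1.54-fold lower, adjusted p = 0.0232; SE, 8 arrays each, limma). The Gucy1b3 call was lost without the saline 6 h array (-0.57, adjusted p = 0.0544), the saline 12 h array (-0.50, 0.0561), the cobalt 6 h array (-0.50, 0.0573) or the cobalt 24 h array (-0.60, 0.0589), and without the saline 12 h and 48 h arrays together (-0.57, 0.0722). A second, dimmer probe of Gucy1a3 averaged -0.37 ± 0.10 (adjusted p = 0.0223, limma). It gave -0.46, 0.29, -0.31 and 0.46 in cobalt rats, so that in this pretreatment it lay on both sides of 0 at a mean of -0.01, against a mean of -0.74 in saline rats.

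Set apart by pretreatment, 3 members were called in cobalt rats and 4 in saline rats. In cobalt rats Edn1 (-0.98 ± 0.21) and Edn3 (-0.74 ± 0.09) fell and Nos3 (0.90 ± 0.19) rose, with adjusted p of 0.0116, 0.00101 and 0.0104, where 20.8% of all genes were called (8.54% higher, 12.3% lower). In saline rats Ednrb (-0.96 ± 0.15), Gucy1a3 (-0.86 ± 0.19) and Ednra (-0.23 ± 0.08) fell, with adjusted p of 0.00116, 0.00683 and 0.0327. Ece1 was called at -0.52 ± 0.16 (adjusted p = 0.0266), where 40.1% of all genes were called, 21.8% higher and 18.3% lower (limma). Each mean is over 4 arrays, but its SE rests on a spread pooled over all 8 arrays, so both pretreatments share it. For Nos3 the SD between arrays was 0.58 in saline rats and 0.27 in cobalt rats. The Ece1 value is a lower bound, since 2 of its 4 saline ratios were saturated, so no fall is drawn from it, and the unsaturated probes of Ece1 gave -0.53 (adjusted p = 0.00817) and 0.27 (0.266) in saline rats. With duration as a factor, Edn1 and Gucy1b3 were called in both pretreatments, Edn1 at an adjusted p of 0.00215 in cobalt and 0.0192 in saline rats and Gucy1b3 at 0.0278 and 0.0359. With each array centred on its median, the Nos3 value in cobalt rats was 0.03 (adjusted p = 0.898, limma). In saline rats Ednrb then stood at -0.39 (0.0814), Gucy1a3 at -0.05 (0.843) and Ednra at -0.08 (0.428), so these calls were lost. Ednra in saline rats also failed with the software's ratios (adjusted p = 0.0525, limma) and with scaling between arrays (0.0591), and was called in 10 of 20 alternative settings. Single arrays ended calls as well. Ednra was lost without any 1 of the saline 6 h, 12 h and 48 h arrays (adjusted p = 0.12, 0.0782 and 0.0562) or of the cobalt 12 h and 24 h arrays (0.0514 and 0.055). Ece1 was lost without the saline 24 h or 48 h array (0.0802 and 0.112). Without the saline 12 h and 48 h arrays together, Ednrb was the 1 member called in saline rats, and the value for Gucy1a3 was -0.68 (adjusted p = 0.0775).

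The contrast of the pretreatments itself, the cobalt response minus the saline response, was called for 4 of 8 members where 30.1% of all genes were called (12.7% higher, 17.5% lower). It was higher in cobalt rats for Nos3 (0.79 ± 0.27, adjusted p = 0.0493) and Ednrb (0.71 ± 0.21, 0.0324) and lower for Edn3 (-0.53 ± 0.13, 0.0125; limma, SE, 4 arrays a side). Ece1 was called at 0.85 ± 0.22 (adjusted p = 0.0187), an upper bound because of the saturated saline ratios, and its mean over probes gave 0.56 (0.067). For Edn1, called in cobalt rats alone, the contrast was -0.61 ± 0.30 and was not called (adjusted p = 0.151, and 0.0154 with duration as a factor), nor was it for Gucy1a3 (0.43 ± 0.27, 0.263), called in saline rats alone by its brighter probe. The probes of a gene differed here too: the second probe of Gucy1a3 gave a called contrast of 0.74 ± 0.21 (adjusted p = 0.0254), and the other probes of Ece1 gave 0.70 ± 0.18 (0.0152) and 0.13 ± 0.26 (0.741). In the loess values cobalt and saline arrays did not overlap for Edn3, nor for Ece1 if its saturated ratios are taken at their values, and they did not overlap for 31.9% of all genes. In the software's ratios those of Edn3 did overlap, with -1.61 on the saline 12 h array against -1.20 to -0.82 on the cobalt arrays.

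These contrasts carry the dye orientation, and their direction depended on how the dyes were balanced. When each array was centred on its median in place of loess, the median contrast over all genes was -0.78 in place of -0.04, and the called genes split into 21.5% higher and the rest lower in place of 42.1% higher. Under this centring Ednrb stood at -0.82, Nos3 at -0.48 and Ece1 at -1.77, each of the opposite sign to its loess value, while Edn3 kept its sign at -1.10. Within saline rats Ece1 then stood at 0.88 (adjusted p = 0.0014, limma), against -0.52 with loess. Relative to the median of all genes, Ednrb was then level with it, Nos3 was above it and Ece1 and Edn3 were below it. Single arrays also decided calls here. The Nos3 contrast failed the test without any 1 of the saline 12, 24 or 48 h arrays or of the 4 cobalt arrays, at 0.57 to 0.89. The Ednrb contrast failed without the saline 24 or 48 h array or the cobalt 6, 24 or 48 h array, at 0.57 to 0.72, and without the saline 12 h and 48 h arrays together only Edn3 was called (-0.64, adjusted p = 0.0217).

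**Figure D3:**
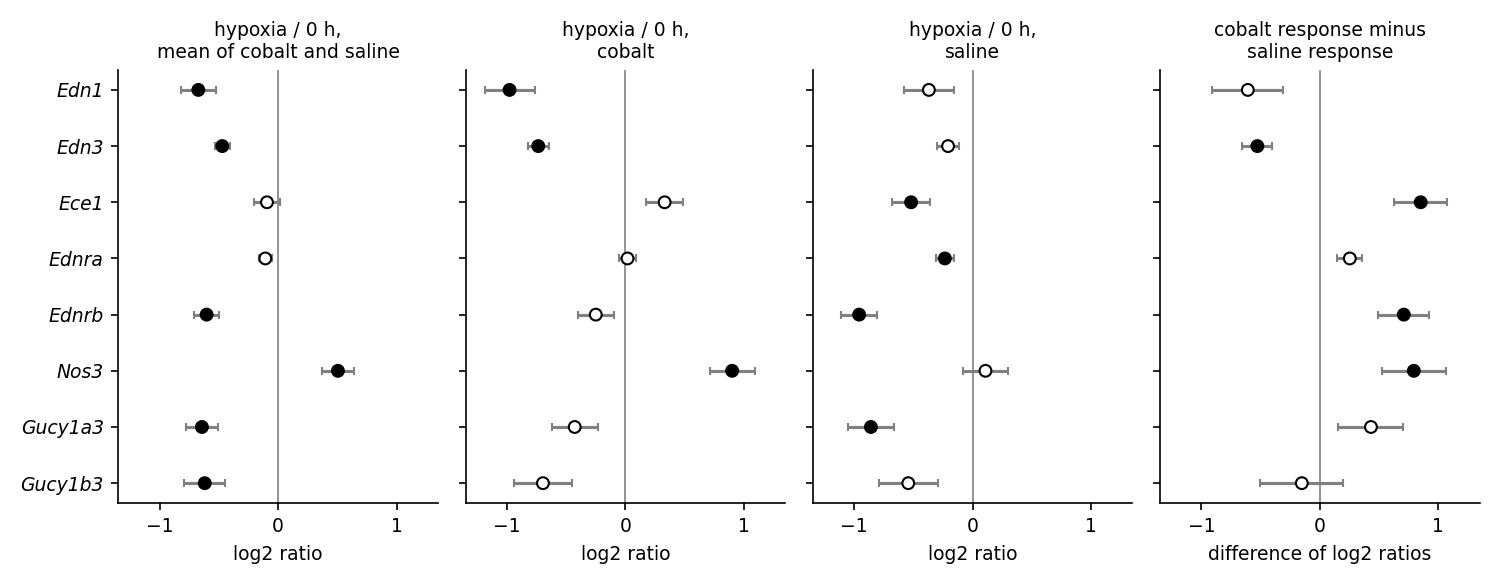
Fitted log2 ratio of hypoxia over 0 h for the 8 members tested, averaged over pretreatments, in cobalt rats and in saline rats, and the difference cobalt minus saline (x axes, log2), with bars of 1 SE. Filled points were called at an adjusted p under 0.05. Edn1, Edn3 and Nos3 were called in cobalt rats, and Ece1, Ednra, Ednrb and Gucy1a3 in saline rats.

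**Figure D4:**
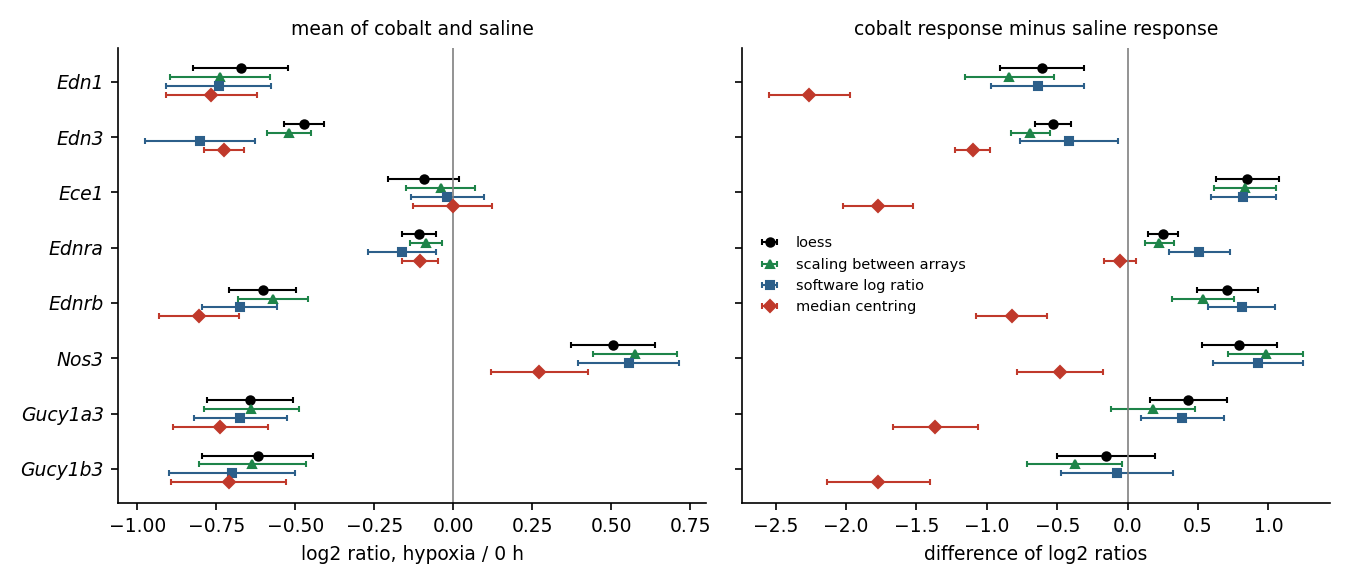
Fitted log2 ratios of the 8 members averaged over pretreatments (left) and their difference cobalt minus saline (right), x axes in log2, under 4 ways of balancing the channels, with bars of 1 SE. On the left the called members keep their signs, while Nos3 stands at 0.50 by loess and 0.27 by median centring, and Edn3 at -0.47 by loess, -0.73 by median centring and -0.80 by the software's ratios. On the right median centring moves the values to the left, and Ednra, Ednrb, Ece1, Nos3 and Gucy1a3 change sign.

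Markers of several cell types differed between the pretreatments in the same loess values. Of 12 endothelial markers, 8 had a higher response in cobalt than in saline rats and none a lower one, where 12.7% of all genes were higher, with a median contrast of 0.79, and the median marker ratio was 0.11 to 0.22 on cobalt arrays and -0.85 to -0.46 on saline arrays. This turned with the centring as well: with each array centred on its median, 10 of the 12 were lower in cobalt rats and none higher, at a median contrast of -1.08. Under this centring 14960 of all 24138 genes were lower in cobalt rats, and the median contrast over all genes was -0.78. The loess contrast was also higher for 5 of 7 type II markers (median 0.82) and 5 of 7 smooth muscle markers (median 0.63). It was lower for 3 of 4 club cell markers (median -2.09) and 5 of 5 ciliated cell markers (median -1.69), where 17.5% of all genes were lower. On average over pretreatments 5 of the 12 endothelial markers fell and 1 rose, with a median of -0.22, where 16.3% of all genes fell and 15.7% rose. Plvap, which builds the diaphragms of endothelial pores, fell most (-1.67 ± 0.08), Kdr (-0.58 ± 0.12) and Tek (-0.52 ± 0.06) fell, and Egfl7 rose (0.51 ± 0.09). Smooth muscle markers were higher in hypoxia in 6 of 7, where 15.7% of all genes were higher, with a median of 1.33, led by Des (2.02 ± 0.08) and Actg2 (1.76 ± 0.08). Nos3 and Ednrb are expressed by endothelium, and Ednra and the cyclase by smooth muscle; in RNA from whole lung, fewer cells of a type and less RNA per cell cannot be told apart, and the part of cell numbers in these values was not tested.

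With duration, no member passed a test. Late (24 and 48 h) minus early (6 and 12 h), in which the 0 h RNA and the dye orientation cancel, was 0.83 ± 0.24 for Gucy1b3, -0.57 ± 0.25 for Edn1 and -0.56 ± 0.19 for Nos3 (SE, 8 arrays), with adjusted p of 0.311, 0.39 and 0.32 (limma). Gucy1a3 stood at 0.39 ± 0.27 and Ece1 at -0.42 ± 0.20. This contrast was called for 0% of all genes, 0 of 24138 by limma, although 3103 of them (12.9%) had an unadjusted p under 0.05, Gucy1b3 and Nos3 among them. Whether late minus early differed between cobalt and saline rats was called for 0 members and 0% of all genes as well, with 1308 at an unadjusted p under 0.05. A test of any difference among the 4 durations called 0.00829% of all genes and no member.

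Genes with the most similar course over the 8 arrays, after centring within each pretreatment, were sought among 2837 genes with a centred SD of at least 0.25. For Nos3 they were Bnip3 (r = 0.987), Ugt1a2 (r = 0.986) and Irs2 (r = 0.983). For Edn1 they were Klf6 (r = 0.972), Igf2bp2 (r = 0.964) and Agt (r = 0.963), and for Ednrb they were Asns (r = 0.951), Tmem26 (r = 0.949) and Il6st (r = 0.944). Each is the highest of many correlations over 8 arrays that share their 0 h RNA within a pretreatment, and they are given as a description of likeness.

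Other genes that supply, regulate or read out the endothelin and nitric oxide systems were followed as a list of 68, of which 67 were on the array and 54 were tested. Averaged over pretreatments 10 rose, 12 fell and 32 did not pass, where 15.7% of all genes rose and 16.3% fell, with a median log2 ratio of -0.02, close to that of all genes. Of the 22 called, 20 were called in every alternative setting and none changed sign. Of 9 tested genes of arginine supply and handling, 3 rose and 1 fell. The arginine transporter Slc7a1 rose by 0.84 ± 0.11, with values between 0.50 and 1.13 on cobalt arrays and between 0.66 and 1.63 on saline arrays (adjusted p = 0.000754, limma), and the arginine-making enzyme Ass1 and the arginine-degrading enzyme Arg2 rose by 0.70 ± 0.15 and 0.55 ± 0.13. In the tetrahydrobiopterin list, which holds the cofactor pathway of the synthases, 3 of 6 rose and none fell: Gch1, its first enzyme (0.69 ± 0.16), Spr, its last (0.39 ± 0.06), and Qdpr, which recycles it (0.28 ± 0.06). In the contrast cobalt minus saline, 1 of these 6 was higher and 3 were lower, where 12.7% of all genes were higher and 17.5% lower. Pretreatment cannot be told apart from slide, scan and dye orientation in it. In saline rats 4 rose and 0 fell, where 21.8% of all genes rose and 18.3% fell, with a median log2 ratio of 0.47. In cobalt rats 1 rose and 1 fell, where 8.54% rose and 12.3% fell, with a median of -0.13. Ass1, Arg2, Gch1, Qdpr and the 2 genes Nostrin and Mme given next were picked after their values were seen, and the rest by lowest p.

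Of 10 tested genes for proteins that handle the synthases, 1 rose, 3 fell and 6 did not pass, where 15.7% of all genes rose and 16.3% fell. Dynll1, a dynein light chain known to bind the neuronal synthase, rose by 0.53 ± 0.07 on average (adjusted p = 0.000711, limma) and was above 0 on all arrays, while Nostrin, which draws Nos3 away from the membrane, fell by 0.63 on the log2 scale (SE 0.14). Ddah1, the gene of the arginine list that fell, degrades the synthase inhibitor ADMA. It had a log2 ratio of -0.41 ± 0.06 and was below 0 on all 8 arrays. In the endothelin list, Mme, the neprilysin that degrades endothelin and natriuretic peptides, had -0.62 ± 0.15 and was the 1 of 4 tested genes that was called.

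On the cyclic GMP side 5 of 15 tested genes fell and 2 rose on average, where 16.3% of all genes fell and 15.7% rose. In saline rats 6 fell and 2 rose, where 18.3% of all genes fell and 21.8% rose. In cobalt rats 1 fell and 3 rose, where 12.3% fell and 8.54% rose. Pde5a, the phosphodiesterase that breaks down cyclic GMP, had log2 ratios of 0.05, 0.39, -0.31 and -0.16 in cobalt rats and -0.91, -1.21, -0.86 and -0.75 in saline rats, without overlap. Its average was -0.47 ± 0.08 (adjusted p = 0.00307, limma). The natriuretic peptide receptors Npr3 (-0.73 ± 0.12) and Npr2 (-0.33 ± 0.05) and the prenyl-binding Pde6d (-0.51 ± 0.10) fell on average and on every array, and Kcnmb1, the beta subunit of the calcium-activated potassium channel that relaxes smooth muscle, rose on average (0.65 ± 0.12). Kcnmb1 was higher at each later duration in both pretreatments, with 1.16 in cobalt rats and 1.19 in saline rats at 48 h.

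Among genes that carry the signal of the endothelin receptors, 1 of 10 rose and 2 fell, a share near the 31.9% of all genes called. Rgs2, which switches off the G proteins these receptors use, had the lowest p of the list at 1.05 ± 0.05 (adjusted p = 4.15e-06, limma), with 0.61 to 0.91 on cobalt arrays and 1.19 to 1.40 on saline arrays. Plcb4, a phospholipase that such G proteins activate, fell on every array with an average of -0.80 ± 0.09 (adjusted p = 0.000418, limma). Rgs5, which is also a pericyte marker, had -0.52 ± 0.08.

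**Figure D5:**
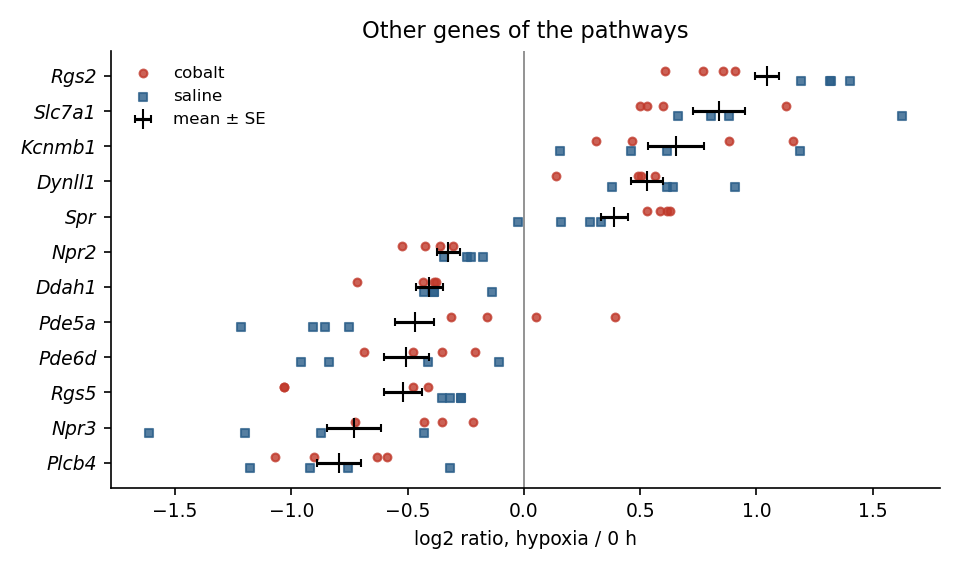
Log2 ratio of hypoxia over 0 h (x axis) for the 12 genes of the wider endothelin and nitric oxide list with the lowest p in the average over pretreatments, 1 per row. Red circles are the 4 cobalt arrays, blue squares the 4 saline arrays, and the black mark with its bar is the mean ± SE over the 8 arrays. Rgs2 and Slc7a1 were above 0 on every array and Plcb4, Npr3 and Pde6d below 0 on every array.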

How the data were processed

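Rat lung RNA was measured on 8 two-channel arrays of 60-base probes. Feature Extraction 9.5.1.1 read the scans, per the file headers, and gave mean signals and local backgrounds as intensity on the scanner's scale. The same files hold a log10 ratio (red over green) that the software had already corrected for background and dye, per the file headers. The authors deposited a series matrix too, in log2 ratios: no header states this scale, but each value is within 0.005 of the log10 ratio converted to log2, turned in sign for the cobalt arrays, with column medians of 0. No count stands behind a value, and the number of arrays limits the precision.

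Signals were corrected with normexp (offset 50) and loess-normalized within arrays in limma 3.58.1 (R 4.3.3), which lets the ratio vary with intensity and then sets its trend to 0. Outlier spots were dropped (208 to 294 per array), spots of a probe averaged, and a probe was kept when 4 or more of the 8 arrays had it well above background in 1 of the channels (28419 probes). The brightest probe stood for a gene. Of 41012 probes, RefSeq named 10735 through an accession, 5512 through a symbol and 3751 through a synonym, and 21014 kept the file's name. Models had 1 mean per pretreatment (6 residual degrees of freedom), or 1 per pretreatment and period (4), with a variance trend over intensity, and were tested on simulated data. P-values measure spread between arrays of different durations.

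Named genes were all members, the 12 genes of the wider list and up to 4 markers per cell type with the lowest p in the average, and the 3 genes most like each of Edn1, Ednrb and Nos3; exceptions are stated. The members and the lists were chosen with earlier results of these data known. The alternatives tried were the software's ratios, no background subtraction, median centring, scaling between arrays, the series matrix, other filters, the mean over probes, outliers kept, no variance trend, duration as a factor, each array left out and, chosen after seeing the data, the saline 12 h and 48 h arrays left out together.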

Additional observations from a re-analysis of the deposited data

Results flagged for a closer look

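The contrast of the responses, cobalt minus saline, passed its own test for 4 members: Nos3 at 0.79, Ednrb at 0.71, Edn3 at -0.53 and Ece1 at 0.85 on the log2 scale. The Ece1 value is an upper bound, because the hypoxia channel of its probe was saturated on 2 of the 4 saline arrays. The Edn3 contrast kept its sign in all 20 alternative settings and passed in 18. The exceptions were the software's ratios (-0.42, adjusted p = 0.385, limma) and the series matrix (-0.42, 0.388). The Edn3 probe was dimmer in saline rats (mean 0 h level 6.91) than in cobalt rats (8.27), and what this does to the contrast was not tested. The other 3 change sign when arrays are centred on the median, and pretreatment cannot be told apart from slide, scan and dye orientation for any of them.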

How the results depend on the processing

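Duration pairs each cobalt array with a saline array, and with duration as a factor 6 members were called in saline rats, Edn1 and Gucy1b3 added, and the Edn1 contrast passed (-0.61, adjusted p = 0.0154). By replicate number, no paired analysis was possible because each group has 1 array. The average over pretreatments gave 6 called members, and 4 to 6 in the alternatives. In saline rats 4 were called, against 2 with the software's ratios, 2 with the series matrix, 1 with median centring and 1 without the saline 12 h and 48 h arrays. Of all 24138 genes, 9687 were called in saline rats with loess on all 8 arrays. Those settings called 9837, 9833, 14261 and 4801, in the same order. In cobalt rats 3 were called, and 6 with median centring, where Nos3 was lost (0.03, adjusted p = 0.898) and Ece1 was called lower (-0.89). Of all 24138 genes, 5023 were called in cobalt rats with loess and 19416 with median centring. For cobalt minus saline 4 were called, against 2 with the software's ratios, 2 with the series matrix and 1 without those saline arrays. Of all 24138 genes, 7277 were called here with loess on all 8 arrays, and 7742, 7745 and 4421 in those settings. Other settings called more members. Median centring called Edn1, Edn3, Ednrb, Ece1, Gucy1a3 and Gucy1b3, all lower in cobalt rats, but not Nos3. It called 19055 of all 24138 genes in this contrast, 14960 of them lower. With duration as a factor, Edn1 was added to the 4. Leaving out 1 array gave 5 to 6 members in the average, 2 to 4 in saline rats, 3 to 4 in cobalt rats and 2 to 4 in the contrast, while the counts of 0 for the 3 tests of duration were 0 in every alternative run.

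Values that turned sign in the average, the contrast and late minus early were, for cobalt minus saline with median centring, Ednra (-0.056), Ednrb (-0.82), Ece1 (-1.77), Nos3 (-0.48) and Gucy1a3 (-1.37); for the average, Ece1 as the mean over probes (0.022); for late minus early, Edn3 without background subtraction (-0.011), with scaling (-0.055) and without the saline 12 h and 48 h arrays (-0.047). With 1 array left out, the contrast for Gucy1b3 ran from -0.41 to 0.084, late minus early for Edn3 from -0.040 to 0.19 and for Ednrb from -0.22 to 0.015. Within a pretreatment, median centring also turned Edn1 (0.36), Gucy1b3 (0.17) and Ece1 (0.88) in saline rats and Ece1 (-0.89) and Ednra (-0.13) in cobalt rats, and Nos3 turned in saline rats without the 6 h array (-0.13) and Ednra in cobalt rats without the 48 h array (-0.025). The cause was not tested. Centring moved the median of all genes to 0.28 in saline rats and -0.49 in cobalt rats, and called 84.1% and 25.2% of called genes as higher, against 54.3% and 41% with loess. Of 472 member values recomputed, 423 kept sign and side of the threshold. Signal limits Nos1 and Nos2, and Edn3 and Ednra are dim.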
